A study of Mus musculus with 21 samples.

Results

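Trunk notochord was compared with mesoderm progenitors (MP) of the same embryonic stage, at E8.5 and again at E9.5, by RNA-seq of sorted cells from mouse embryos. A gene was kept when trunk notochord or MP held 5 FPKM or more (mapped fragments scaled by transcript length and library size) at each stage, which 8134 of the 23983 genes in the expression table did. The measure was the log2 ratio of trunk notochord over MP after adding 1 FPKM to both. A gene was called trunk-high or MP-high when this ratio reached 3-fold, a log2 ratio of 1.58, in the same direction at both stages. The call took 361 genes as trunk-high (4.44% of the 8134) and 160 as MP-high (1.97%), together 521. At E8.5 alone 14.6% of the genes that passed were 3-fold higher and 8.15% 3-fold lower in trunk notochord, and at E9.5 alone 8.11% and 7.43%. These ratios chose the genes, so they are given as a description.

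Of the 21 samples of the series, 4 gave this comparison. The study asked which regulatory elements drive gene expression in the notochord of the mouse, and profiled notochord, its progenitors and mesoderm progenitors for that purpose. All embryonic cells carried the same 3 BAC reporters, T::H2B-Venus, Noto::H2B-mCherry and Foxa2::H2B-mTurquoise, in F1G4 mES cells (a C57BL/6N by SV129 cross), from which the embryos were made. Embryos were pooled, dissociated with trypsin and sorted. Trunk notochord was the T+/Noto+/Foxa2+ fraction of trunk tissue, at Theiler stage 12 (E8.5) and 16 (E9.5). Notochord progenitors (NotoP) were T+/Noto+/Foxa2+ cells of caudal ends. The study lists unequal reporter gates, with high T for MP and high Foxa2 for trunk notochord and for NotoP of E9.5. MP were the T+/Noto-/Foxa2- fraction of caudal ends. Cell type and place along the body axis therefore differ together between trunk notochord and MP and cannot be told apart, whereas NotoP and MP came from the same region. Each group was 1 library, so no difference below has a replicate check and each describes these libraries. In such bulk samples fewer cells of a type and less RNA per cell cannot be told apart either. The MP library of E8.5 came from 24 cells, and the trunk libraries were small as well, so a low value or a listed 0 there also rests on few cells. The pools of a stage did not cover the same range of somite numbers in trunk notochord and MP, so embryo age within a stage can differ between them too. Among the 8134 genes, 426 (5.24%) were listed at 0 in the MP library of E8.5, against 56 (0.688%) in MP at E9.5. The trunk libraries of E8.5 and E9.5 listed 71 (0.873%) and 169 (2.08%) at 0. FPKM are scaled by library size but do not state the read depth, which was not used here. A listed 0 may be an estimate that failed.

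The notochord is the first axial skeleton of the vertebrate embryo and a midline source of Sonic hedgehog, which induces the floor plate and the sclerotome, and its remnants persist in the intervertebral discs. It is laid down from progenitors at the caudal end of the embryo, where they lie among the mesoderm progenitors that feed the presomitic mesoderm. Those mesoderm progenitors are kept by Wnt, FGF and Cdx activity, segment under the Notch-linked clock, and carry the Hox code that sets position along the body axis.

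The genes behind the sort separated the cells as labelled. *Noto*, a homeobox gene of the node and notochord, stood at 27.5 and 20.8 FPKM in trunk notochord (E8.5, then E9.5, the order of every pair of values), at 152 and 164 in NotoP, and was listed at 0 in both MP libraries. *Foxa2* stood at 71.2 and 35.6 FPKM in trunk notochord, 57.0 and 45.6 in NotoP and 1.25 and 0.86 in MP. *T* (brachyury), on which all 3 cell types were gated, stood at 398 and 424 FPKM in trunk notochord, 909 and 744 in NotoP and 74.8 and 160.0 in MP. *T* missed the 3-fold line at E9.5, with log2 ratios of 2.39 and 1.40, while *Noto* and *Foxa2* were trunk-high. Of the genes with a role in mesoderm progenitors, *Tbx6* and *Msgn1* were listed at 0 in both trunk libraries. Trunk notochord thus held less *T* and *Noto* than NotoP at both stages and more of both than MP.

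**Figure D1:**
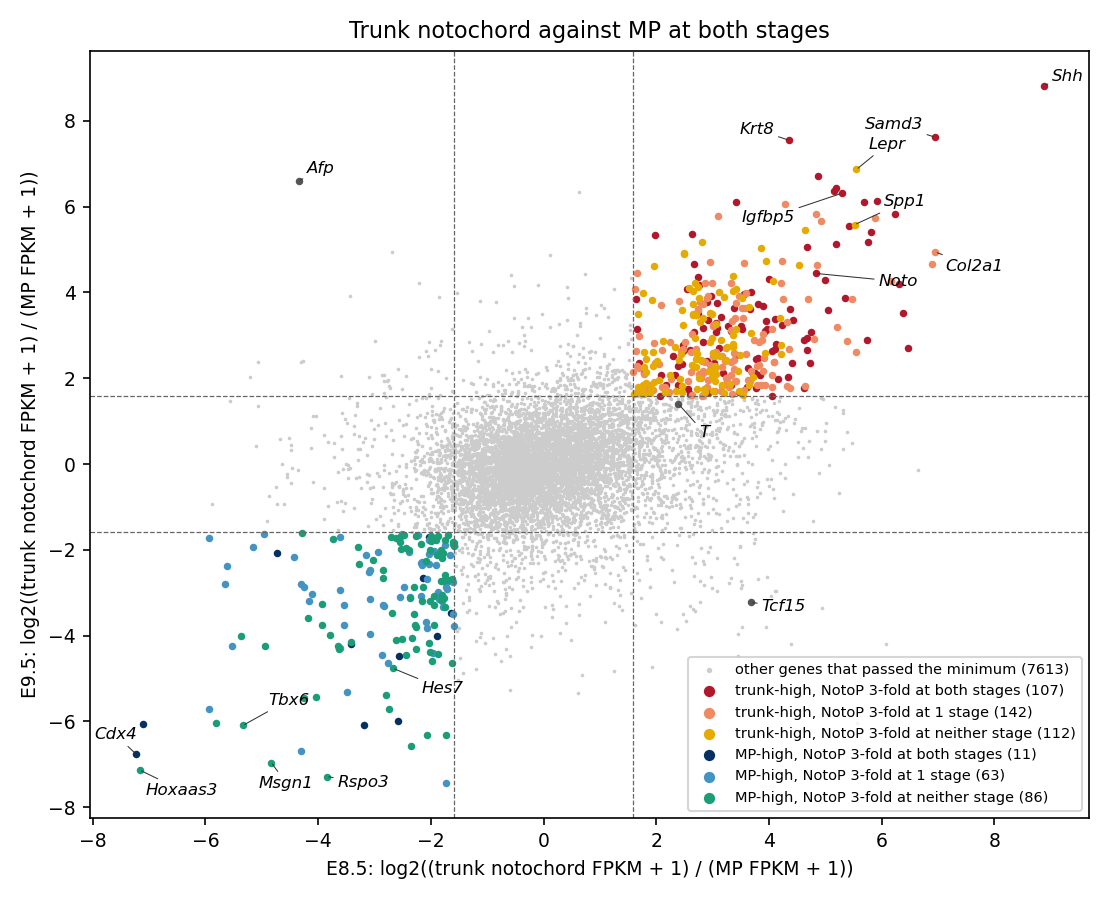
Log2 ratio of trunk notochord over MP (FPKM plus 1) at E8.5 on the x axis and at E9.5 on the y axis, 1 point a gene, for the 8134 genes that passed the minimum. Coloured points are the 361 trunk-high and 160 MP-high genes, by whether NotoP passed the same 3-fold line (dashed) at both stages, 1 stage or neither, and *Shh* lies farthest to the upper right.

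Transcription factors of the notochord were trunk-high in 5 of the 6 listed genes that passed the minimum (of 10 listed), with a median log2 ratio of 4.11 over both stages beside -0.03 for all 8134 genes. *Sox9*, which drives cartilage genes and keeps the notochordal sheath, stood at 74.8 and 92.9 FPKM in trunk notochord, 51.9 and 30.0 in NotoP, and 0 and 0.662 in MP. *Foxa1*, a relative of *Foxa2*, rose from 44.2 to 88.0 FPKM between the trunk libraries and held 3.26 and 0.287 in MP. *Lmx1a*, a LIM homeobox gene, went from 28.3 to 103 FPKM in trunk notochord, stood at 45.2 and 42.8 in NotoP and was listed at 0 in MP at both stages. *Mnx1*, another homeobox gene, was lower in trunk notochord (9.06 and 8.16 FPKM) than in NotoP (24.6 and 23.0). *Sox5*, a partner of *Sox9* in cartilage, was the 1 factor whose NotoP level passed the line at 1 stage only, with 10.6 and 13.7 FPKM in trunk notochord and 1.73 and 4.13 in NotoP. *Sox6*, the remaining gene that passed, reached 3-fold at E9.5 but not at E8.5, where its log2 ratio was 1.08.

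Secreted midline signals were trunk-high in 7 of 12 genes that passed (of 20 listed; median log2 ratio 3.25). *Shh*, the ligand by which the notochord patterns its neighbours, had the largest change of all 521 genes. It stood at 468 and 607 FPKM in trunk notochord, at 161 and 178 in NotoP, and at 0 and 0.343 in MP, so every notochordal library lay far above every MP library and trunk notochord lay above NotoP. *Nog*, a BMP antagonist, showed the opposite order of stages, with 77.8 FPKM at E8.5 and 48.2 at E9.5 in trunk notochord and 75.1 and 37.2 in NotoP, and 0 and 1.67 in MP. The axon guidance ligand *Slit2* rose from 175 to 398 FPKM between the trunk libraries and stood at 119 and 141 in NotoP and at 2.15 and 8.45 in MP. Its relative *Slit1* was found in trunk notochord (20.6 and 45.8 FPKM) and hardly in NotoP (0.18 and 1.60) or MP (0.495 and 0.436). *Sema3e*, *Pdgfa* and *Gdf1*, a further guidance ligand, a growth factor and a TGF-beta family ligand, completed the group. *Gdf1* stood at 7.84 and 23.9 FPKM in trunk notochord against 0 and 1.30 in MP. *Sfrp1*, a Wnt antagonist, showed no such difference, with 22.6 and 7.07 FPKM in trunk notochord and 16.03 and 7.74 in MP.

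Among receptors and targets of Hedgehog signalling, 2 of 7 genes that passed (of 11 listed) were trunk-high, both of them known transcriptional targets of the pathway. *Ptch1*, which encodes the Hedgehog receptor, stood at 189 and 136 FPKM in trunk notochord, 150.5 and 86.0 in NotoP and 12.7 and 23.7 in MP, with log2 ratios of 3.80 and 2.47. *Gli1*, a transcription factor induced by the pathway, gave 19.2 and 24.7 FPKM against 1.42 and 1.62 in MP. The signal transducer *Smo* (42.0 and 26.3 FPKM against 28.7 and 42.2) and the factor *Gli3* (19.6 and 29.6 against 25.6 and 20.8) stayed within 3-fold at both stages, and the list median was 0.65. BMP ligands and targets gave 1 trunk-high gene of 7 that passed (of 14 listed; median 0.57), the ligand *Bmp5*, at 13.9 and 14.1 FPKM against 0 and 0.181. *Id1*, a BMP target, turned between the stages, at 73.0 and 10.2 FPKM in trunk notochord and 5.56 and 81.8 in MP, while *Id3*, also a target, lay at 90.0 and 94.8 FPKM in trunk notochord and 84.4 and 45.6 in MP.

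Epithelial junction and keratin genes were trunk-high in 7 of 11 that passed (of 20 listed; median log2 ratio 2.40). The 9 gut endoderm genes listed below also summed higher in trunk notochord (211 and 138 FPKM) than in NotoP (5.40 and 1.40) or MP (87.5 and 1.70). The part of such cells in the epithelial genes was not tested. The paired keratins of simple epithelia led in level. *Krt8* stood at 641 and 423 FPKM in trunk notochord, 250.3 and 109 in NotoP and 30.2 and 1.27 in MP, and *Krt18* at 627 and 217, 304 and 86.5, and 16.7 and 1.63. *Krt19* gave 285 and 125 FPKM in trunk notochord, 96.1 and 160.3 in NotoP and 5.67 and 1.66 in MP. These 3 keratins were lower in trunk notochord at E9.5 than at E8.5 and lower still in MP. *Krt7*, the other keratin that passed, differed, at 5.55 and 15.0 FPKM in trunk notochord with a log2 ratio of -1.54 at E8.5, so it was lower than in MP there and was not called. The cadherins *Cdh1* and *Cdh3* and the tight junction genes *Cldn6* and *Cldn10* were also trunk-high, *Cdh1* with 37.4 and 11.3 FPKM against 5.88 and 0.933. *Cldn10*, at 5.25 and 10.1 FPKM in trunk notochord, was listed at 0 in both NotoP and both MP libraries. None of the 6 mesenchymal genes that passed (of 8 listed) was 3-fold in either direction at both stages (median -0.26). *Vim*, the intermediate filament gene of mesenchyme, was 3-fold higher in trunk notochord at E8.5 only, at 395 and 389 FPKM against 52.4 and 212 in MP. *Cdh2* (N-cadherin) stood at 130.2 and 131 FPKM in trunk notochord and 105 and 139 in MP, and *Snai1*, a repressor of *Cdh1*, at 4.16 and 10.5 against 13.1 and 66.6.

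Genes for basement membrane and its receptors split. Of 17 that passed (of 23 listed), 8 were trunk-high and 1 MP-high (median 1.24). The integrin chains *Itga3* and *Itga6*, which bind laminin, were trunk-high, *Itga3* with 53.0 and 35.3 FPKM in trunk notochord, 19.8 and 12.6 in NotoP and a listed 0 in both MP libraries. The laminin chains went in opposite directions. *Lama5* was trunk-high (35.2 and 21.3 FPKM against 8.20 and 3.33), as was *Lamb2*, whereas *Lama1* was MP-high (4.16 and 18.5 against 62.4 and 62.6), with NotoP between them (19.3 and 35.9). The proteoglycan gene *Agrn* and the epithelial adhesion genes *Fras1*, *Frem1* and *Frem2* were trunk-high. *Frem2* stood at 48.4 and 74.9 FPKM in trunk notochord and at 113 and 94.5 in NotoP, while *Fras1* at 21.7 and 23.2 FPKM was near its MP level in NotoP (5.65 and 5.61 against 5.40 and 5.51).

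Collagen and cartilage matrix genes were trunk-high in 10 of 16 that passed (of 23 listed; median log2 ratio 3.00), and here NotoP mostly stayed with MP. *Col2a1*, the main fibrillar collagen of cartilage and the notochordal sheath, stood at 188 and 308 FPKM in trunk notochord, 20.0 and 24.2 in NotoP and 0.526 and 9.06 in MP. *Col9a1*, whose product coats collagen II fibrils, gave 37.6 and 101 FPKM in trunk notochord, 5.48 and 6.03 in NotoP and 5.87 and 2.36 in MP. *Col11a2* gave 23.9 and 46.6, 0.168 and 0.115, and 0 and 0.0816 in the same order. *Acan*, the aggrecan of cartilage, was present in trunk notochord at 10.5 and 14.5 FPKM and at no more than 0.256 in NotoP or MP. *Hapln1*, which links aggrecan to hyaluronan, stood at 56.6 and 64.4 FPKM in trunk notochord, 4.48 and 13.2 in NotoP and 2.05 and 1.45 in MP. NotoP passed 3-fold over MP at neither stage for 7 of the 10 genes (*Col5a1*, *Col9a1*, *Col9a3*, *Col11a1*, *Col11a2*, *Col18a1* and *Acan*), at 1 stage for *Col2a1* and *Hapln1*, and at both stages for *Cthrc1*, a secreted matrix protein, at 81.3 and 71.5 FPKM in trunk notochord and 127 and 60.9 in NotoP. *Vcan*, a proteoglycan of loose matrix, was alike in trunk notochord (106 and 101 FPKM) and MP (67.6 and 151).

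The same division was made for all 361 trunk-high genes. NotoP was 3-fold over MP at both stages for 107 of them (29.6%), at 1 stage for 142 (39.3%) and at neither for 112 (31.0%), beside 1.97% of the 8134 genes for which NotoP was 3-fold over MP at both stages. By stage, NotoP passed the line for 219 trunk-high genes (60.7%) at E8.5, beside 11.7% of all genes, and for 137 (38.0%) at E9.5, beside 3.32%. Trunk notochord and NotoP were divided by the same MP libraries, so a value off in MP enters both ratios. The median log2 ratio of the trunk-high genes was 3.08 at E8.5 and 2.66 at E9.5 for trunk notochord over MP, and 2.02 and 1.17 for NotoP over MP. For 6 trunk-high genes NotoP lay below MP at both stages. Set directly against NotoP, trunk notochord was 3-fold higher at both stages for 67 of the 112 genes that NotoP did not share and for 3 of the 107 that it did. The way the classes were chosen places trunk notochord above NotoP in the former, so these counts describe the classes and support nothing further. Over all 8134 genes trunk notochord was 3-fold over NotoP at both stages for 1.71% and 3-fold under it for 1.16%.

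Of the genes that NotoP shared, those with the largest change after *Shh* were *Samd3*, *Cobl*, *Sox9*, *Tgm2*, *Krt19*, *Slit2* and *Igfbp5*. *Samd3* stood at 123 and 196 FPKM in trunk notochord and 112 and 133 in NotoP and was listed at 0 in both MP libraries. *Cobl*, an actin nucleator, gave 59.7 and 115 FPKM in trunk notochord, 51.0 and 46.4 in NotoP and 0 and 0.66 in MP. *Igfbp5*, which binds insulin-like growth factors, gave 455 and 445, 151 and 122, and 10.6 and 4.61. *Tgm2*, a transglutaminase that crosslinks matrix proteins, was far lower in NotoP (5.58 and 10.5 FPKM) than in trunk notochord (88.0 and 68.3), yet passed the line over MP (0.731 and 0).

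Of the genes that NotoP did not share, *Lepr*, the leptin receptor, led with 46.0 and 116 FPKM in trunk notochord, 0.341 and 0 in NotoP and a listed 0 in MP at both stages. *Spp1* (osteopontin), a secreted matrix protein, stood at 44.9 and 46.9 FPKM in trunk notochord and 0.664 and 0.453 in NotoP and was also listed at 0 in MP. *Col11a2*, *Snord8*, *Susd5*, *2610203C20Rik*, *Slit1* and the tight junction gene *Cldn1* followed. *Susd5* rose from 15.9 to 38.7 FPKM between the trunk libraries, and *Cldn1* stood at 11.5 and 11.7. *Snord8*, at 22.2 and 24.0 FPKM in trunk notochord and 0 in the other 4 embryonic libraries, is a small nucleolar RNA within the gene *Chd8*, on the same strand, and its value is uncertain for that reason.

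**Figure D2:**
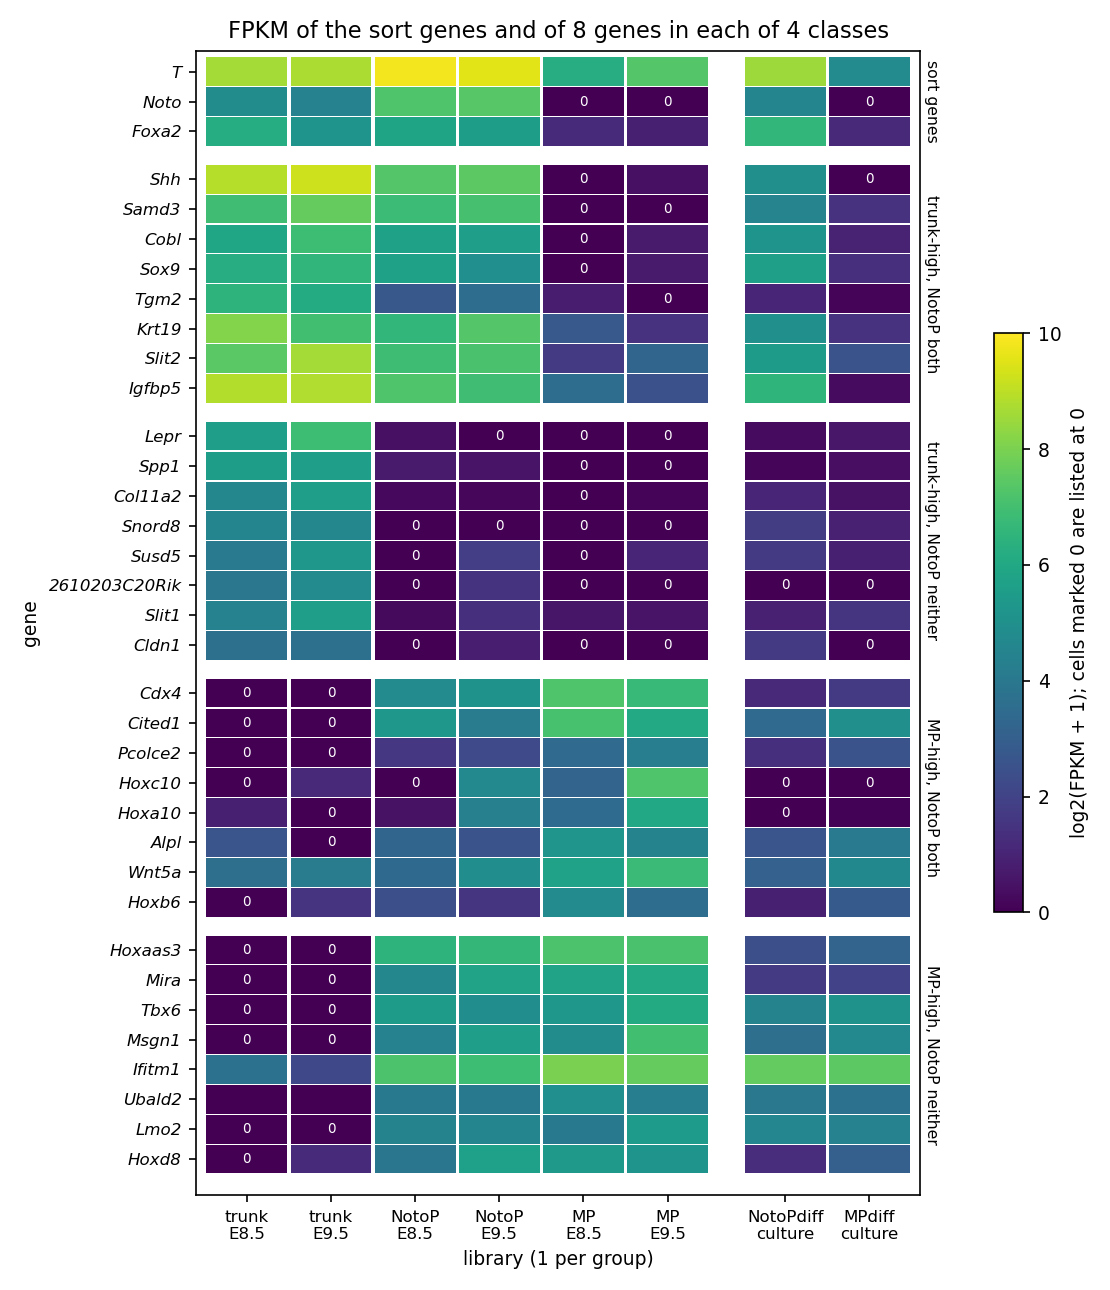
FPKM as log2(FPKM + 1), by colour, in 8 libraries (columns; 1 library a group) for the sort genes and for the 8 genes with the largest change in each of 4 classes (rows); cells marked 0 are listed at 0. *Lepr*, *Spp1* and their class are dark in NotoP and MP, and *Cdx4* and *Tbx6* are at 0 in trunk notochord.

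On the MP side, genes of paraxial mesoderm were MP-high in 5 of 11 that passed (of 19 listed) and trunk-high in none, with a median log2 ratio of -1.96. *Tbx6*, which commits progenitors to paraxial mesoderm, was listed at 0 in trunk notochord at both stages and stood at 44.0 and 27.8 FPKM in NotoP and 39.3 and 67.2 in MP. *Msgn1*, a presomitic mesoderm factor, was likewise at 0 in trunk notochord, with 20.0 and 46.6 FPKM in NotoP and 27.5 and 123 in MP. *Foxc1* stood at 12.7 and 6.55 FPKM in trunk notochord and 44.2 and 54.0 in MP. *Pcdh19*, a protocadherin, gave 1.73 and 6.09 against 52.9 and 48.4. *Gbx2* was the 1 gene of the 5 that was also 3-fold lower in NotoP at both stages, at 6.21 and 2.42 FPKM there and 25.6 and 32.9 in MP. *Meox1*, a somite gene, was alike in the E9.5 libraries, with 14.0 FPKM in trunk notochord and 14.3 in MP.

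Notch pathway and segmentation clock genes were MP-high in 4 of 11 that passed (of 14 listed; median -1.60), and for 3 of the 4 NotoP held at least the MP level at E8.5. *Hes7*, an oscillating repressor of the clock, was listed at 0 in both trunk libraries and stood at 74.3 and 22.7 FPKM in NotoP and 5.38 and 26.1 in MP. *Nrarp*, a feedback target of Notch, gave 1.71 and 8.31 FPKM in trunk notochord, 51.3 and 30.5 in NotoP and 11.1 and 83.5 in MP. The ligand *Dll1* stood at 1.92 and 0 FPKM in trunk notochord, 51.7 and 30.4 in NotoP and 56.8 and 101 in MP, and *Dll3* at 5.08 and 0, 32.7 and 28.3, and 19.2 and 78.2. NotoP thus expressed these 4 genes, which were low or at 0 in trunk notochord. *Hes1*, another target of Notch, turned between the stages, at 24.3 and 3.28 FPKM in trunk notochord and 7.15 and 56.4 in MP. The receptor *Notch2* ran the other way without reaching 3-fold, at 53.6 and 36.7 FPKM in trunk notochord and 22.2 and 14.3 in MP.

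Caudal progenitor genes were MP-high in 5 of 10 that passed (of 15 listed; median -1.97). *Cdx4*, which promotes posterior Hox expression, fell from 149.7 and 107 FPKM in MP to 26.0 and 32.7 in NotoP and to a listed 0 in both trunk libraries. Its relative *Cdx2* was higher in NotoP (126 and 107 FPKM) than in MP (50.8 and 52.7), and stood at 9.23 and 2.22 in trunk notochord. *Evx1*, the TGF-beta family ligand *Gdf11* and the retinoic acid-degrading enzyme *Cyp26a1* were the other MP-high genes of the list. *Cyp26a1* gave 6.17 and 0 FPKM in trunk notochord against 29.1 and 78.3 in MP. *Sp5*, a Wnt target, did not differ in this way, at 18.9 and 15.9 FPKM in trunk notochord and 14.9 and 17.0 in MP.

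Ligands and feedback targets of FGF signalling were MP-high in 4 of 9 that passed (of 14 listed; median -2.02), and those of Wnt signalling in 4 of 9 (of 14 listed; median -2.40). *Dusp6*, a phosphatase that ERK signalling induces, stood at 14.2 and 16.1 FPKM in trunk notochord, 39.8 and 61.7 in NotoP and 63.1 and 80.9 in MP, with log2 ratios of -2.08 and -2.26 for trunk notochord over MP. *Spry4*, another inhibitor of the pathway, gave 0.479 and 1.55 FPKM against 14.7 and 44.0, and the FGF ligand *Fgf15* and the target *Etv4* were MP-high too. *Rspo3*, a secreted enhancer of Wnt signalling, stood at 3.67 and 0 FPKM in trunk notochord, 146 and 144 in NotoP and 66.1 and 155 in MP. The ligand *Wnt3a* was at 0 in trunk notochord, at 15.4 and 11.2 FPKM in NotoP and 11.3 and 18.9 in MP. *Lef1*, a nuclear effector and target of the pathway, fell to 15.9 and 3.90 FPKM in trunk notochord from 188 and 194 in MP. The non-canonical ligand *Wnt5a* alone among these 8 genes was 3-fold lower in NotoP at both stages (9.53 and 29.1 FPKM against 53.0 and 108 in MP). *Axin2*, a Wnt feedback inhibitor, reached 3-fold at E8.5 only, at 9.30 and 8.37 FPKM in trunk notochord and 34.1 and 24.7 in MP.

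Hox genes were MP-high in 17 of 28 that passed, and none was trunk-high. Of groups 1 to 8, 11 of 21 (of 23 listed) were MP-high, with a median log2 ratio of -2.61, and of groups 9 to 13, 6 of 7 (of 16 listed), with a median of -3.67. The most posterior genes that passed were near 0 in trunk notochord. *Hoxc10* stood at 0 and 1.24 FPKM in trunk notochord, 0 and 24.9 in NotoP and 8.14 and 151 in MP, and *Hoxa10* at 0.858 and 0, 0.368 and 18.8, and 10.1 and 62.8. The *Hoxc10* value is uncertain, since *Hoxc5* overlaps it on the same strand. *Hoxa9* gave 0.72 and 2.33 FPKM in trunk notochord, 6.72 and 47.5 in NotoP and 29.7 and 29.3 in MP. By cluster, all 6 genes of the HoxD cluster on chromosome 2 that passed were MP-high, as were 5 of 6 of HoxC on chromosome 15, 4 of 8 of HoxA on chromosome 6 and 2 of 8 of HoxB on chromosome 11. The noncoding transcripts *Hoxaas3* and *Mira* led the MP-high genes that NotoP kept. *Hoxaas3*, which runs antisense across *Hoxa3* to *Hoxa7*, was listed at 0 in both trunk libraries and stood at 87.0 and 98.0 FPKM in NotoP and 143 and 139 in MP. Its value is uncertain, since *5730596B20Rik* and *Gm29430* overlap it on the same strand, and *Mira* has no position here to check. Trunk and caudal tissue differ in axial position by dissection, and its part in these Hox values cannot be told apart from that of cell type. Between NotoP and MP, both caudal, NotoP passed the line at both stages for 3 of the 17 genes, at 1 stage for 8 and at neither for 6.

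Over all 160 MP-high genes, NotoP was also 3-fold below MP at both stages for 11 (6.88%), at 1 stage for 63 (39.4%) and at neither for 86 (53.8%), beside 0.467% of the 8134 genes for which NotoP was 3-fold lower at both stages. With the E9.5 MP library at both stages the first share was 14.6% of 219 genes. That choice leaves out the MP library of 24 cells and also changes the MP stage set against E8.5, and which of these moved the share was not tested. By stage the numbers were 61 (38.1%) at E8.5 and 24 (15.0%) at E9.5, beside 6.86% and 1.43% of all genes. The median log2 ratio of the MP-high genes was -2.36 and -3.04 for trunk notochord over MP and -1.34 and -0.51 for NotoP over MP. Trunk notochord was 3-fold below NotoP at both stages for 53 of the 160, which again describes genes chosen for their low trunk values. The 11 genes 3-fold lower than MP in both notochordal cell types were *Cdx4*, *Cited1*, *Pcolce2*, *Hoxc10*, *Hoxa10*, *Alpl*, *Wnt5a*, *Hoxb6*, *Gbx2*, *Coq7* and *Pdgfra*, the last 3 named after their values were seen. With 5 FPKM added in place of 1, *Pcolce2*, *Hoxc10*, *Hoxa10* and *Hoxb6* fell below the line for trunk notochord over MP. *Cited1*, a transcriptional coactivator, stood at 39.6 and 17.0 FPKM in NotoP and 136 and 65.1 in MP and was listed at 0 in trunk notochord. *Alpl*, alkaline phosphatase, gave 5.23 and 0 FPKM in trunk notochord, 8.22 and 4.85 in NotoP and 36.0 and 21.2 in MP. Of the 86 genes that NotoP kept, *Tbx6*, *Msgn1*, *Ifitm1*, *Ubald2*, *Lmo2* and *Hoxd8* followed the Hox-linked transcripts. *Ifitm1*, an interferon-induced membrane protein of early mesoderm, was the most abundant of the 86 in MP at E8.5, at 12.5 and 3.52 FPKM in trunk notochord, 142 and 115 in NotoP and 255 and 198 in MP.

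The remaining lists had few called genes. Of the Eph receptors and ephrins, 3 of 13 that passed (of 18 listed) were trunk-high (*Ephb1*, *Ephb2* and *Ephb3*) and 1 MP-high (*Efna3*), with a median of 0.12. *Ephb1* went from 6.29 to 48.8 FPKM between the trunk libraries and stood at 1.14 and 2.16 in MP. Of 22 cilium genes found in the table, 6 passed and only *Pkd2*, a calcium channel of cilia, was trunk-high (39.2 and 54.3 FPKM against 3.49 and 8.69; list median 1.35). No caveolae gene (0 of 9) passed, the highest trunk value being *Pacsin3* at 10.2 FPKM at E9.5. Of 26 cell cycle genes, all of which passed, 2 were trunk-high (median -0.29), and both encode inhibitors of cyclin-dependent kinases. *Cdkn1c* stood at 256 and 185 FPKM in trunk notochord, 99.5 and 149 in NotoP and 6.81 and 14.4 in MP, and *Cdkn1b* at 15.5 and 26.7, 14.1 and 6.16, and 0 and 5.51. Another such inhibitor of the list, *Cdkn1a*, turned between the stages, at 2.30 and 12.4 FPKM in trunk notochord and 12.2 and 1.92 in MP. *Mki67*, a marker of cycling cells, was expressed in all 6 libraries, from 72.9 FPKM in NotoP at E9.5 to 199.6 in trunk notochord at E9.5. None of 18 glycolysis genes that passed (of 21 listed) was called (median -0.51); *Ldha* stood at 839 and 541 FPKM in trunk notochord and 1661 and 1699 in MP, and *Pgk1* at 607 and 349 and 826 and 664. Of 15 housekeeping genes 1 was trunk-high (median -0.45), *B2m*, a class I histocompatibility subunit, at 64.1 and 77.6 FPKM against 18.1 and 20.8. Rescaling the libraries to the same FPKM sum moved the median of all genes from 0.00 to 0.21 at E8.5 and from -0.01 to 0.14 at E9.5, and no list median changed sign under it, under median-of-ratios scaling or with the E9.5 MP library at both stages.

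Markers of other cell types were read as whole lists. The 9 gut endoderm genes summed to 211 and 138 FPKM in trunk notochord, 5.40 and 1.40 in NotoP and 87.5 and 1.70 in MP. Of the 4 that passed (list median 1.61), *Ttr* was trunk-high (36.0 and 23.4 FPKM against 8.502 and 0), and *Afp* turned between the stages, at 2.11 and 95.7 FPKM in trunk notochord and 62.2 and 0 in MP. *Afp* was the most abundant of the 9 in trunk notochord at E9.5 and in MP at E8.5. *Spink3*, which did not pass, led in trunk notochord at E8.5 (136 FPKM) and was at 0 in the other 5 embryonic libraries. The endoderm regulator *Sox17* was at 0 in both trunk libraries. The 13 floor plate and neural tube genes summed to 53.0 and 26.5 FPKM in trunk notochord, 23.5 and 13.1 in NotoP and 8.27 and 7.82 in MP. Only *Sox2* passed, and it was trunk-high (14.3 and 14.5 FPKM against 0 and 3.35, with 17.3 and 10.5 in NotoP). *Nkx6-1*, a ventral neural tube gene, gave 14.7 and 1.32 FPKM in trunk notochord. Trunk notochord and NotoP were both sorted on *T*, *Noto* and *Foxa2* reporters. The part of gut endoderm, floor plate or neural tube cells in the trunk-high genes was not tested.

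The 10 somite and sclerotome genes summed to 40.7 and 46.7 FPKM in trunk notochord, 19.4 and 21.5 in NotoP and 42.9 and 22.4 in MP, with *Meox1* the most abundant, *Myf5* and *Nkx3-2* at 0 throughout, and neither of the 2 that passed called (median -0.19). *Pax1*, of the sclerotome, was found only in trunk notochord at E9.5 (13.5 FPKM). The 9 lateral and intermediate mesoderm genes summed to 5.10 and 55.8 FPKM in trunk notochord, 5.90 and 0.908 in NotoP and 64.8 and 1.90 in MP. *Foxf1* led in MP at E8.5 (26.8 FPKM) and *Prrx1*, the 1 gene that passed, in trunk notochord at E9.5 (16.8; mean log2 ratio 1.34), and *Tbx5* and *Wt1* were at 0 in all 6. The 4 neural crest genes summed to 2.43 and 30.8 FPKM in trunk notochord, the latter nearly all *Sox10* (26.3), to 0 in both NotoP libraries, and to 0 and 0.158 in MP, with *Foxd3* at 0 in all 6. The 8 blood genes gave at most 2.27 FPKM in any of the 6 libraries, all of it *Alas2*, with the other 7 at 0. The 8 endothelial genes gave at most 6.79 FPKM, in NotoP at E8.5, with *Pecam1* and *Tie1* at 0 in all 6, and the most abundant in trunk notochord was *Emcn* (1.67 FPKM at E9.5). The 6 surface ectoderm genes gave at most 7.77 FPKM, also in NotoP at E8.5, with *Krt5* and *Krt14* at 0 in all 6 and *Grhl2* the most abundant in trunk notochord (4.89 FPKM at E8.5). No blood, neural crest, endothelial or surface ectoderm gene passed the minimum.

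The 11 genes known to respond to dissociation and stress summed to 65.6 and 84.2 FPKM in trunk notochord, 51.2 and 73.0 in NotoP and 35.1 and 34.9 in MP. Of the 2 that passed (median 1.41), *Jun* was trunk-high, at 17.3 and 37.3 FPKM against 0.814 and 3.44, and *Ier2* stood at 28.9 and 10.9 against 27.3 and 21.0. Their part in the comparison was not tested.

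Listed zeros were common among the called genes. Of the 361 trunk-high genes, 179 (49.6%) were at 0 in MP at E8.5 and 48 (13.3%) in MP at E9.5, 38 of them in both. Of the 160 MP-high genes, 32 (20.0%) were at 0 in the E8.5 trunk library and 65 (40.6%) in that of E9.5, 18 of them in both. Leaving out the genes at 0 in MP at E8.5 left 182 trunk-high genes, and using the E9.5 MP library at both stages gave 420, of which 295 were among the 361. The same change gave 219 MP-high genes, of which only 102 were among the 160. At the fold line, *Scarb2* and *Nprl2* were the last trunk-high genes taken (3.00-fold at the smaller stage), with *Plekha2* (3.01) and *Ispd* (3.03) next. *Ift88* (2.998), *Ptpmt1* (2.987), *Tubb4a* (2.973) and *Emid1* (2.964) lay just outside. On the other side *Ptk7* (3.00), *Has2* (3.02), *Gtf2f2* (3.03) and *Hoxa7* (3.04) lay just inside, and *Spire1* (2.999), *Cyth3* (2.990), *Taz* (2.987) and *Urb2* (2.962) just outside. FPKM are scaled by transcript length, and the median length was 3697 bases for trunk-high genes, 2565 for MP-high genes and 3520 for all genes with a position. *Spp1* and *Slit2* also have annotated genes overlapping them on the same strand, which makes their values less certain. A pair of called genes are near-identical copies, between which reads can be split. *Amd2* was trunk-high (59.0 and 52.8 FPKM against 0.0126 and 0.0111) and *Amd1* MP-high (0.127 and 0.684 against 68.0 and 87.0), whereas their sum was 59.2 and 53.5 FPKM in trunk notochord and 68.0 and 87.0 in MP. These calls are uncertain, and the pair was picked after its values were seen.

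Cells differentiated from mES cells in culture gave a readout that the call had not used. NotoP diff were T+/Noto+ cells sorted from cultures with doxycycline-induced *Foxa2*, and MP diff were T+/Noto- cells from cultures without it, 1 library each. Of the 361 trunk-high genes, 311 (86.1%) were higher in NotoP diff than in MP diff, beside 48.1% of all genes that passed, and 87 (24.1%) were 3-fold higher, beside 2.15%. The median log2 ratio was 0.76 for the trunk-high genes and -0.02 for all. Genes that NotoP shared at both stages stood farthest apart, with 103 of 107 (96.3%) higher in NotoP diff, 58 (54.2%) 3-fold higher and a median of 1.91. Those that NotoP shared at neither stage gave 81 of 112 (72.3%), 9 (8.04%) and a median of 0.35. Many of the latter were hardly expressed in culture, 71 of 112 (63.4%) lying below 5 FPKM in the NotoP diff library and in that of MP diff, against 22 of 107 (20.6%) of the shared genes and 6.55% of all. Of their 9 genes that were 3-fold higher, only 3 reached 5 FPKM in either library. Among the shared genes 57 of 58 did so, and among all genes 161 of 175. Of the MP-high genes, 115 of 160 (71.9%) were lower in NotoP diff, beside 51.7% of all genes, 14 (8.75%) were 3-fold lower, beside 0.602%, and the median was -0.34.

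Single genes followed the same division (NotoP diff first). *Shh* stood at 30.2 FPKM in NotoP diff and was listed at 0 in MP diff, *Igfbp5* stood at 90.5 and 0.223, and *Sox9* at 47.1 and 1.56. Several genes of the trunk notochord were low in both cultures. Of the matrix genes *Col2a1* gave 4.05 and 5.55 FPKM and *Col9a1* 0.597 and 0.618, and the receptor gene *Lepr* gave 0.211 and 0.539. The matrix gene *Cthrc1* was not low, at 52.4 and 6.24 FPKM, and *Col18a1* stood at 9.94 and 8.45. Of the MP-high genes, *Gbx2* stood at 7.51 and 36.8 FPKM, and *Pdgfra* at 5.80 and 30.3. *Tbx6* (21.3 and 33.2 FPKM) and *Hes7* (11.2 and 12.7), listed at 0 in the trunk libraries, were expressed in both cultures, as they were in both NotoP and MP. The *Foxa2* value of NotoP diff (95.5 FPKM) includes the induced transgene.

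Binding of T and Foxa2 had been mapped by ChIP-seq in unsorted cultures grown as for NotoP diff, 1 library each. A peak was assigned to a gene when its summit lay within 5000 bp of the gene start. A T peak was found at 41 of 358 trunk-high genes with a position in the annotation (11.5%), beside 8% of all 8096 genes with a position, and a Foxa2 peak at 49 (13.7%), beside 10.4%. Either factor had a peak at 76 (21.2%), beside 16.8%, and both factors at 14 (3.91%), beside 1.61%. Genes that NotoP shared at both stages had a T peak in 17.8% and a Foxa2 peak in 16.8% of 107 cases. Those shared at 1 stage had them in 9.22% and 9.93% of 141, and those shared at neither in 8.18% and 15.5% of 110. Within 1000 bp the order turned, with either peak at 5.03% of trunk-high genes and 6.29% of all. Of 157 MP-high genes with a position, 20 (12.7%) had a T peak and 14 (8.92%) a Foxa2 peak. The T peaks lay mostly at genes that NotoP kept, 16 of 84 (19.0%), against 3 of 62 (4.84%) lower in NotoP at 1 stage and 1 of 11 (9.09%) at both. Among the 16 were *Msgn1*, *Hes7*, *Tbx6* and *Cdx2*. These 4 genes were expressed in NotoP and low or at 0 in trunk notochord. Their class was chosen by such values, so these levels describe the class and add nothing about the peaks. Among all called genes, 2 T peaks and 2 Foxa2 peaks lay within reach of several genes at a time, 1 of the latter near both MP-high *Polr2l* and trunk-high *Tspan4*, so genes and peaks are not independent there.

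**Figure D3:**
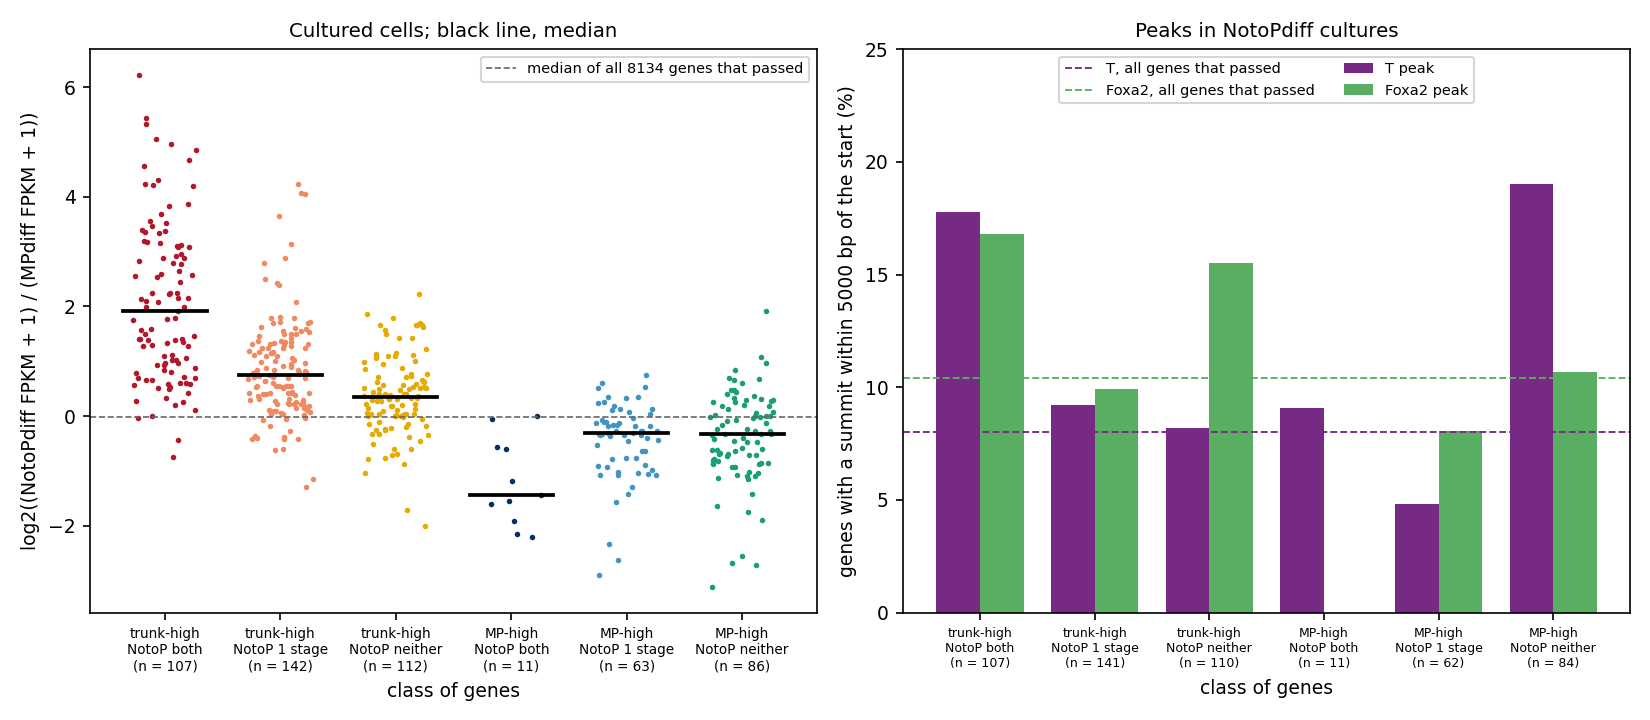
Left, NotoP diff over MP diff as a log2 ratio (FPKM plus 1) on the y axis for each called gene, by class on the x axis, with the class median as a black line and the median of all 8134 genes dashed. Right, percent of genes of each class with a T or a Foxa2 summit within 5000 bp of the gene start (bars), with the percent over all genes that passed dashed, in which T reaches 17.8% for trunk-high genes shared by NotoP at both stages and 19.0% for MP-high genes that NotoP kept.

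The sequence at a few of these peaks shows what lies under the summits. Windows of 101 bases around each summit were searched on both strands for GTGTGA and AGGTGT, the overlapping parts of the T half-site AGGTGTGA, and for TGTTTAC, a core forkhead site. GTGTGA was present at 1610 of 6871 T summits (23.4%) and at 6.20% of windows of the same length 10000 bp away, AGGTGT at 11.4% and 5.21%, and TGTTTAC at 9.74% of 22680 Foxa2 summits and 1.61% of windows away from them. A match describes the sequence and is not shown to be a bound site. The strings and the windows printed here were chosen after the peaks were seen: the T peak of highest fold enrichment on each side of the comparison, *Samd3*, which has the most matches of the 7 called genes with T and Foxa2 summits close together, and *Nog* and *Mnx1* as notochord genes with a matching string. All are in mm10, plus strand, with matches in capitals.

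*Samd3* has a T summit of 20.2-fold enrichment and a Foxa2 summit of 13.4-fold, 110 bp apart, 1365 and 1255 bp upstream of the gene start, between genes at chr10:26228292-26228502. The window over both holds 5 matches to the T strings, some overlapping, and none to TGTTTAC.
Samd3, T and Foxa2: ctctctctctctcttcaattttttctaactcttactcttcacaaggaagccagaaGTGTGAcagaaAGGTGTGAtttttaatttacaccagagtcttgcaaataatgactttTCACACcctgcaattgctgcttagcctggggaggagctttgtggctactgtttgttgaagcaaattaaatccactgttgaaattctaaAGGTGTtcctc

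*Pkdcc*, which encodes a secreted kinase of skeletal development and was trunk-high (25.1 and 18.4 FPKM in trunk notochord, 0.384 and 0 in NotoP, 3.17 and 0.186 in MP), had the T peak of highest fold enrichment of the trunk-high genes, 22.2-fold (*Avpr1b* and *Samd3* had higher -log10 q values), with its summit 989 bp upstream of the gene start at chr17:83214253-83214353. A Foxa2 peak of 12.3-fold lay 1668 bp upstream at chr17:83213574-83213674. Both lie between genes.
Pkdcc, T: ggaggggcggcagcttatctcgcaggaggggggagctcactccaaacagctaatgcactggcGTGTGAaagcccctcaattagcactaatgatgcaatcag
Pkdcc, Foxa2: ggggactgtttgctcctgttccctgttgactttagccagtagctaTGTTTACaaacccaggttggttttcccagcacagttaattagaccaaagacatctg

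At *Nog* a T summit of 5.07-fold lay 2100 bp downstream of the gene start, past the end of the gene, at chr11:89300182-89300282, and at *Mnx1* a Foxa2 summit of 6.46-fold lay 1125 bp upstream, between genes, at chr5:29479545-29479645. The *Nog* window holds the whole AGGTGTGA, and that of *Mnx1* holds TGTTTAC on the minus strand.
Nog, T: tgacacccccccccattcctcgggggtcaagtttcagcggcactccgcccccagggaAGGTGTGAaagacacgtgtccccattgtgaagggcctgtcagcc
Mnx1, Foxa2: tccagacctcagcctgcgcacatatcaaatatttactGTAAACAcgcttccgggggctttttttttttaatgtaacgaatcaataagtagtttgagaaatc

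*Msgn1* had the T peak of highest fold enrichment of the MP-high genes, 23.4-fold (that of *Rab8b* had a higher -log10 q), with its summit 196 bp upstream of the gene start at chr12:11209118-11209218, between genes. None of the strings lies in its window, which says only that these letters are not in these 101 bases.
Msgn1, T: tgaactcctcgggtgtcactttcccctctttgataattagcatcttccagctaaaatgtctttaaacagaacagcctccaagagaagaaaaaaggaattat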

How the data were processed

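RNA-seq of sorted cells gave the expression values, and 11 of the 21 samples were used (9 RNA and 2 ChIP libraries), while 10 were not used here. Per the labels, the authors aligned reads to mm10 (GRCm38) with TopHat2 2.1.1 and Bowtie 1.2.2, removed duplicates by molecular identifier and computed the deposited FPKM values with Cufflinks 2.2.1, and read depth was not used here. The authors called the deposited peaks with MACS3 3.0.0b1, and each peak carries a fold enrichment, a ratio over background. The -log10 q value of each peak was kept as deposited, and the deposited score column was not used. No other column of per-sample values was left out (0). Ratios used FPKM plus 1, a minimum of 5 FPKM and a 3-fold line. Peaks and genes were joined by GENCODE symbols or synonyms, which placed 8096 of 8134 genes (281 by synonym, 38 without a position). Python 3.11.15, numpy 2.4.6, pandas 2.3.3 and matplotlib 3.10.9 were used, and the counting was tested on simulated data.

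The members and the 31 gene lists were chosen with earlier results of these data known. Genes were named by a rule: the sort genes, in each class that NotoP shared at both stages or at neither the 8 genes ranked highest by the weaker of their stage ratios, the 4 on each side of the fold line, and list members called at both stages or a few examples of other lists. List genes named without a call in a list that has called genes, the copies, and the genes named for culture or peaks were chosen after their values were seen. No test was made: each cell type and stage was 1 library, and the rule chose the genes by these ratios. Alternatives were the pseudocount, the minimum, the fold, the scaling, the MP library, the stages taken, the listed zeros, the culture comparator and the peak window. Values of some list genes are not reported here.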

Additional observations from a re-analysis of the deposited data

Results flagged for a closer look

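Some genes passed the 3-fold line in opposite directions at the 2 stages, and the difference between the stages was not tested. Among the 8134 genes, 74 were higher in trunk notochord than in MP at E8.5 and lower at E9.5, and 40 were lower at E8.5 and higher at E9.5. Of the 74, 39 were listed at 0 in MP at E8.5 and 35 in trunk notochord at E9.5, and 50 at 0 in at least 1 of the 4 libraries. Of the 40, 12 were listed at 0 in at least 1 of the 4. *Tcf15*, a somite gene, stood at 11.8 and 0 FPKM in trunk notochord at E8.5 and E9.5 and at 0 and 8.35 in MP. *Afp*, of gut and yolk sac endoderm, stood at 2.11 and 95.7 FPKM in trunk notochord and 62.2 and 0 in MP, and was listed at 0 in both NotoP libraries. *Gm12669* stood at 46.5 and 0 FPKM in trunk notochord and 0.0024 and 65.0 in MP. These 3 genes were chosen after their values were seen. With 1 library per group, a failed estimate, a few cells of another type and a change between stages cannot be told apart.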

How the results depend on the processing

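No paired analysis was possible by replicate number, since every library is replicate 1 and no value here comes from a test. Pairing by stage is another matter: the call compares cell types within each stage, and a test with stage as a block was left out, not ruled impossible.

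Adding 5 FPKM in place of 1 lowered the trunk-high count from 361 to 141 and the MP-high count from 160 to 59. The 2-fold line gave 717 and 411 genes, and the 4-fold line 90 MP-high genes. A minimum of 1 FPKM gave 545 trunk-high genes, as did no minimum (545), and 10 FPKM gave 219. With the minimum and the fold asked at 1 stage only, E9.5 alone gave 1033 trunk-high and 733 MP-high genes, and E8.5 alone 1603 and 890. Without the genes at 0 in MP at E8.5, 182 trunk-high genes were left. Leaving out zeros in trunk notochord at E9.5 left 95 MP-high genes, and leaving out zeros in any of the 4 libraries left 172 and 81, both chosen after seeing the data. Same-sum scaling, median-of-ratios scaling and the E9.5 MP library at both stages kept both counts within 1.5 times, but with that MP library only 102 of the 160 MP-high and 295 of the 361 trunk-high genes were called again.

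The percent of trunk-high genes that NotoP shared at both stages (29.6) became 39.2 with 0.1 FPKM added, 24.2 with no minimum or 1 FPKM, 38.8 with 10 FPKM, 24.1 at 4-fold, 22.8 for E9.5 alone, 56 for E8.5 alone and 69 when either stage was enough. For MP-high genes (6.88) it became 3.39 with 5 FPKM added, 15.1 at 2-fold, 1.11 at 4-fold, 14.6 with the E9.5 MP library at both stages, 45.7 for E8.5 alone, 11.2 for E9.5 alone and 46.2 when either stage was enough. The share of trunk-high genes higher in NotoP diff (86.1) was 75.6 against NMP diff, neuromesodermal progenitor cultures (48.6 over all genes that passed), and 41.8 when 2-fold was asked (4.94 over all). The peak share (21.2) was 5.03 within 1000 bp (6.29 over all) and 79.1 within 50000 bp (70 over all). By construction, a stricter line, minimum or window leaves fewer genes or peaks, and the other causes were not tested.

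For the 8 genes ranked highest in each of 4 classes, 156 of 160 values under alternatives kept their side of the fold line, 4 fell below it with 5 FPKM added, and 0 changed direction. The other named genes were not followed one by one, and those of low FPKM can fall below the line with 5 FPKM added. All 78 list medians kept their sign, though not their size: with the E9.5 MP library at both stages the Hedgehog median went from 0.65 to 1.16, that of BMP genes from 0.57 to 1.00, of gut endoderm from 1.61 to 3.25, of lateral and intermediate mesoderm from 1.34 to 2.46 and of neural tube genes from 2.89 to 1.83. The medians nearest 0 (mesenchymal, Eph, cell cycle, glycolysis, somite and housekeeping genes) also moved by over 1.5 times under that library or same-sum scaling. FPKM keep no counts, so no interval is given for a low value or a listed 0, and the small libraries, among them MP at E8.5 from 24 cells, limit such values.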
